A study of Mus musculus with 3 samples.

Results

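Cxcl12, its receptors Cxcr4 and Ackr3, and the chemokine ligands Cx3cl1, Ccl2, Cxcl1, Cxcl9, Cxcl10 and Cxcl16 were read from a table of 17583 genes. It covers RNA recovered from mouse hearts by an endothelial ribosome tag. These 9 genes were chosen by symbol and were proposed with their deposited values in view, since Cxcl12 is among the 10 genes with the highest mean and the others were set beside it for contrast. All 9 symbols are in the table. The values are levels in ribosome-associated RNA of 3 EC-RiboTag mice, which carry Cdh5-CreERT2, a tamoxifen-inducible Cre recombinase driven by a promoter of endothelial cells, and the allele Rpl22tm1.1Psam, which Cre switches to a ribosomal protein with a hemagglutinin tag. Tagged ribosomes were pulled down from heart homogenates, and their RNA was read from a single end over 72 bases. By the sample labels the coronary artery had been ligated 7 days earlier in all 3 mice, while the methods for the RiboTag hearts name no infarction. Rz appears in each sample title without an explanation in the labels. In a separate qRT-PCR experiment on infarcted EC-RiboTag hearts the study abbreviates the remote zone, the myocardium away from the infarct, as RZ, and whether Rz has that meaning for these libraries is not stated. The labels give heart as the tissue and no age. There is 1 condition, without input or control libraries, so the levels below are a description and no test was made. In RNA combined from all tagged cells of a heart, fewer cells that carry a transcript and less of it per cell cannot be told apart. RNA of cells without the tag may also be included, and its part in the value of each member was not tested.

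The deposited values are read counts that the authors scaled between libraries with size factors and rounded to whole numbers, called normalized counts here. They summed to between 7149102 and 7268785 per mouse, and 1 read was worth about 0.961 to 1.06 of them, so a normalized count is close to 1 read. The 10 endothelial markers, among them Pecam1 and Cdh5, were all listed and summed to 24959, 23785 and 23825 in mice 1, 2 and 3. Markers of other cells were present as well. The 7 cardiomyocyte markers summed to 18604, 19422 and 22487, the 8 fibroblast markers to 2881, 3444 and 3767, the 8 mural markers to 1610, 2002 and 2274, and the 10 leukocyte markers, of which Cd3e and S100a8 were not listed, to 589, 846 and 823. Of cells that Cdh5-CreERT2 can also tag, the 5 lymphatic endothelial markers summed to 3065, 3926 and 4586 and the 3 endocardial markers to 2162, 1360 and 2898.

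Chemokines are small secreted proteins that direct the migration of leukocytes and other cells through receptors with 7 helices in the membrane. They bind to heparan sulfate on the luminal side of endothelial cells, where passing leukocytes read them. Conventional receptors such as CXCR4 signal through inhibitory G proteins, whereas atypical receptors such as ACKR3 take up their ligand and signal mainly through arrestins. CXCL12 is the ligand of both, and with CXCR4 it guides the growth of coronary vessels and holds blood progenitors in their niche.

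The families are named for the first cysteines of the mature ligand, and the members cover 3 of them. The coding stretches that hold these cysteines are shown because they set Ccl2 and Cx3cl1 apart from the CXC ligands. Capitals mark the 2 cysteine codons, which are separated by 1 codon in the CXC ligands, by none in Ccl2 and by 3 in Cx3cl1. They were read 5′ to 3′ from the Ensembl canonical transcripts of GRCm39, with the first cysteine at codon 30 in Cxcl12, counted from the start codon.
Cxcl12 (chr6:117148457-117148489, plus strand): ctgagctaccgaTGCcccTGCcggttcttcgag
Cxcl1 (chr5:91039343-91039375, plus strand): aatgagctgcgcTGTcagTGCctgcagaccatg
Cxcl9 (chr5:92474689-92474721, minus strand): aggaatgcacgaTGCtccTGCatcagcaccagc
Cxcl10 (chr5:92496028-92496060, minus strand): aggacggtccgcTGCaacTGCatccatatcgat
Cxcl16 (chr11:70349941-70349973, minus strand): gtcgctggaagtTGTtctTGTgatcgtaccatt
Ccl2 (chr11:81927320-81927349, plus strand): gccccactcaccTGCTGCtactcattcacc
Cx3cl1 (chr8:95504667-95504705, plus strand): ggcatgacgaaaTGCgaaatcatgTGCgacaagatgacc

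The receptors are shown at the motif that follows their helix 3, a stretch of conventional receptors that contacts the G protein. Capitals mark the 2 codons that stand for another amino acid in the other receptor, and the stretches differ at 7 of 21 bases.
Cxcr4 (chr1:128517237-128517257, minus strand): gaccggtacctcGCTattGTC
Ackr3 (chr1:90141963-90141983, plus strand): gaccgctatctcTCCatcACC

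Cxcl12 (ENSMUSG00000061353) lies on the plus strand of chromosome 6 of GRCm39, from 117145496 to 117158328. Its normalized count was 4959 in mouse 1, 4953 in mouse 2 and 4693 in mouse 3, so the 3 mice lay within 1.06-fold of each other. The mean was 4868 ± 152 (SD, n = 3), which ranked 4 of all genes, and in single mice the rank was 4, 3 and 7. The genes at ranks 10 and 11, on either side of the limit used to choose Cxcl12, had means of 3977 and 3897. Among the other members, the next highest, Cx3cl1, ranked 2440, so Cxcl12 stood alone at this end of the table. Over the 3 mice its log2 levels were nearest to those of Flt1, the gene of a VEGF receptor of endothelial cells, with a root mean square difference of 0.09. Next came Sptbn1, a spectrin, at 0.22, and Ahnak, a giant scaffold protein, at 0.22. These differences are between levels without division by length.

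**Figure D1:**
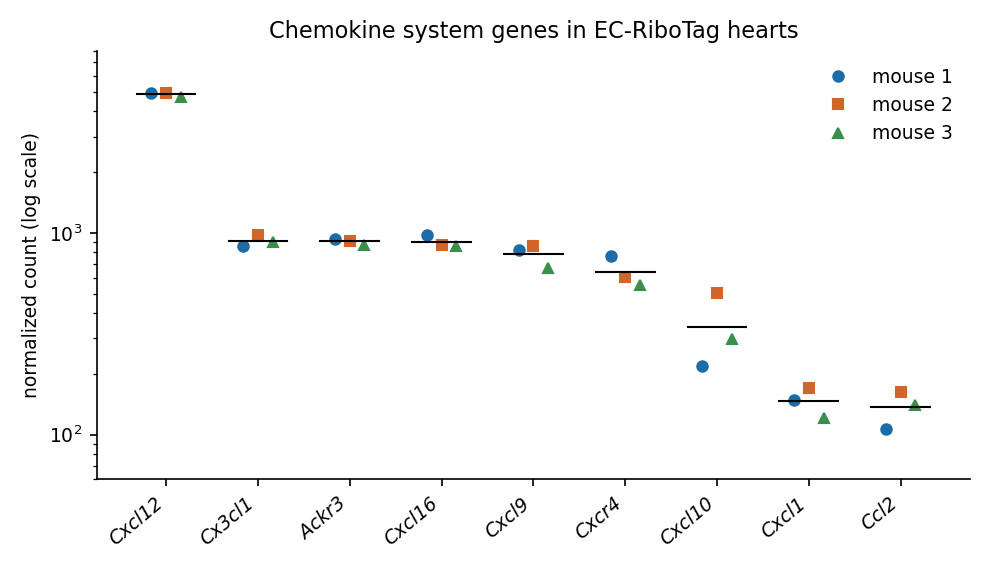
Normalized count (log axis) of the 9 genes in each of the 3 mice, ordered by mean, with a symbol per mouse and a line at the mean. Cxcl12 lies between 4693 and 4959 in all mice, and no value of another member exceeds 979.

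The place of Cxcl12 per base depends on which of its transcripts is used. Its canonical transcript has 4 exons and 5669 bases, of which 5188 follow the coding region, whereas the median of its 6 protein-coding transcripts is 1922 bases. Per base of the canonical transcript the level was 0.859 ± 0.027 normalized counts (SD, n = 3), which ranked 29 of the 17475 genes with an annotated length. The median over all genes was 0.0730 per base and the 99th percentile was 0.664. Per base of all annotated exons joined (8346 bases) it was 0.583, and ranked 35. Per base of the median coding transcript it was 2.53, which is above 1, and ranked 8. The authors removed duplicates, so a start position on a strand can give about 1 read, and of the genes whose mean reached 200 only 14 exceeded 1 per canonical base. The reads of Cxcl12 thus outnumber the bases of its shorter transcripts. Which of the transcripts the ribosomes carried was not tested.

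**Figure D2:**
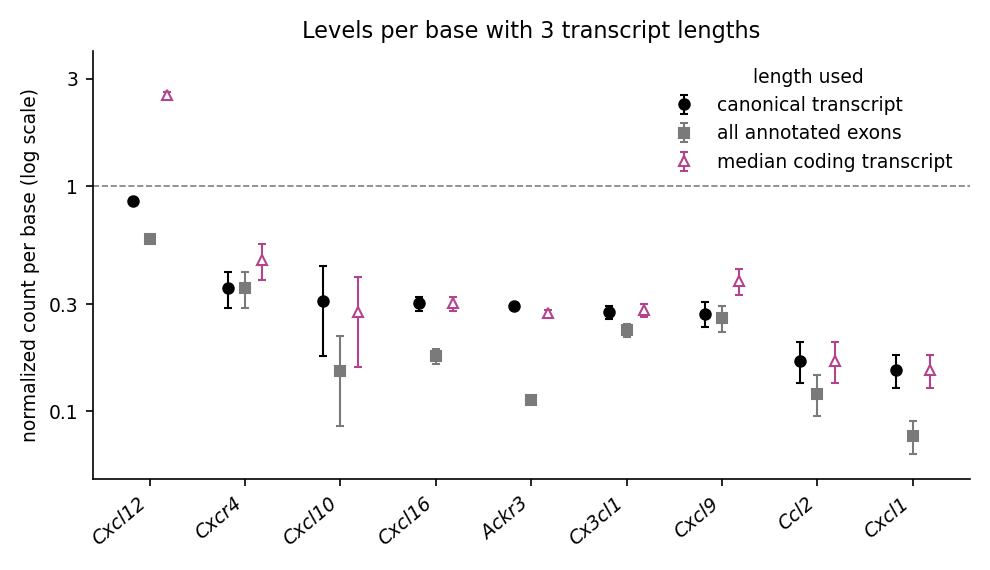
Mean normalized count per base (log axis) of the 9 genes with division by the canonical transcript, by all annotated exons and by the median coding transcript. Bars are the SD over 3 mice and the dashed line is 1 per base. Cxcl12 is the highest and Cxcr4 the next with each length, while Ackr3 moves from 0.295 to 0.112 per base between the canonical transcript and all exons.

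Both receptors of CXCL12 were present. Cxcr4 (ENSMUSG00000045382) spans 128515936 to 128520030 on chromosome 1, minus strand. In mice 1, 2 and 3 it had 772, 603 and 549 normalized counts, with a mean of 641.3 ± 116.3 (SD, n = 3). Mouse 1 stood above the others, and the coefficient of variation was 18.1% where counting alone gives 3.95%. Ackr3 (ENSMUSG00000044337; the same chromosome, 90131702 to 90144473, plus strand) had 931, 916 and 875, with a mean of 907.3 ± 29.0. Its coefficient of variation of 3.19% was no larger than the 3.32% that counting gives. Per base of the canonical transcript Cxcr4 had 0.352 ± 0.064 and Ackr3 had 0.295 ± 0.009, so the difference was less than the SD of Cxcr4, though Cxcr4 was the higher in each mouse. The log2 ratio of Cxcr4 to Ackr3 was 0.49, 0.15 and 0.08 in the 3 mice, with a mean of 0.24 ± 0.22. It was 1.64 per base of all exons, where Ackr3 is spread over 8105 bases, and 0.77 with the median coding transcripts.

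Per canonical base, the ligand exceeded both receptors in each mouse. The log2 ratio of Cxcl12 to Ackr3 was 1.53, 1.55 and 1.54, a 2.91-fold difference (1.54 ± 0.01). Counting alone gives coefficients of variation of 1.43% for Cxcl12 and 3.32% for Ackr3, which is more than this spread. The closeness of the 3 ratios therefore does not show a constant ratio. The log2 ratio of Cxcl12 to Cxcr4 was 1.05, 1.40 and 1.46, with a mean of 1.30 ± 0.22, or 2.46-fold. Its lowest value was in mouse 1, which had the most Cxcr4. The size of these ratios depends on the length chosen. Cxcl12 was 1.67-fold above Cxcr4 per base of all exons and 5.43-fold above it with the median coding transcripts, and the same lengths gave 5.21-fold and 9.24-fold above Ackr3. The direction was the same with each length. Duplicate removal, which limits genes near 1 per base, may lower these ratios and narrow their spread, and this was not tested.

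Cx3cl1 and Cxcl16 encode the chemokines that stand on a membrane-anchored mucin stalk. CX3CL1, or fractalkine, binds CX3CR1 of monocytes, and CXCL16 binds CXCR6 of lymphocytes. Cx3cl1 (ENSMUSG00000031778; chromosome 8, 95498637 to 95509055, plus strand) had normalized counts of 859, 979 and 902, with a mean of 913.3 ± 60.8 (SD, n = 3). Cxcl16 (ENSMUSG00000018920; chromosome 11, 70344809 to 70350810, minus strand) had 979, 871 and 857, with a mean of 902.3 ± 66.8. Mouse 1 was the lowest for Cx3cl1 and the highest for Cxcl16. Per canonical base the 2 genes lay close together, at 0.276 ± 0.018 and 0.302 ± 0.022, and their log2 ratio of -0.13 ± 0.19 crossed 0 between mice. Cxcl12 exceeded Cx3cl1 by 3.12-fold and Cxcl16 by 2.85-fold per canonical base, with log2 ratios of 1.64 ± 0.10 and 1.51 ± 0.09. The proteases that shed both proteins, Adam10 and Adam17, had 0.385 ± 0.011 and 0.261 ± 0.007 per canonical base and varied little between mice. The receptor of CX3CL1 was low, with normalized counts of Cx3cr1 of 12, 13 and 19, and Cxcr6 was not listed.

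Cxcl9 and Cxcl10 are induced by interferons and attract activated T cells through CXCR3, whose gene was not listed. Both lie in the same stretch of chromosome 5 on the minus strand, Cxcl9 (ENSMUSG00000029417) from 92469206 to 92475938 and Cxcl10 (ENSMUSG00000034855) from 92494497 to 92496748. Cxcl9 had 824, 864 and 670 normalized counts in the 3 mice, with a mean of 786.0 ± 102.4 (SD, n = 3). Cxcl10 had 218, 502 and 299, with a mean of 339.7 ± 146.3, and mouse 2 was 2.30-fold above mouse 1. Mouse 2 was the highest for both genes, but the lowest was mouse 3 for Cxcl9 and mouse 1 for Cxcl10. Cxcl10 is a short transcript of 1101 bases, and per canonical base it had 0.309 ± 0.133 against 0.271 ± 0.035 for Cxcl9. Their log2 ratio was -0.52, 0.61 and 0.23, with a mean of 0.11 ± 0.58, so by this length neither gene stood above the other beyond the spread. The order depends on the length, since the log2 ratio was -0.86 per base of all exons and -0.53 with the median coding transcripts, with Cxcl9 the higher. Irf1, which encodes a transcription factor of the interferon response, and Gbp2, one of its GTPases, had their lowest value in mouse 3, as Cxcl9 did. In mice 1, 2 and 3 Irf1 had 1219, 1149 and 1001 normalized counts and Gbp2 had 1214, 1179 and 1061. Both come from a list of 9 cytokine response genes, of which 5 were lowest in mouse 3 and 4 in mouse 1. A link of these genes to Cxcl9 was not tested.

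The 250 bases before the start sites of this pair and of Cxcl1 are shown because interferon and NF-kappaB act on such genes through short elements there. They are RefSeq windows of GRCm38.p6, which hold 7 of the 9 members. Capitals mark matches, on either strand, of a pattern of NF-kappaB sites (GGGA and CC with any 4 bases between them) or of a pattern of interferon-stimulated response elements (GAAA and GAAA with any 2 bases between them).
Cxcl10 (chr5:92348890-92349139, minus strand): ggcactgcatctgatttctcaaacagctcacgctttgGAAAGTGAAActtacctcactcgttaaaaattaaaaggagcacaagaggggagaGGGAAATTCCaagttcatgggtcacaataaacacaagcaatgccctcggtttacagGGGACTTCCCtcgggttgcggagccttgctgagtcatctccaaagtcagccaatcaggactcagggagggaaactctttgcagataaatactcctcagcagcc
Cxcl9 (chr5:92328080-92328329, minus strand): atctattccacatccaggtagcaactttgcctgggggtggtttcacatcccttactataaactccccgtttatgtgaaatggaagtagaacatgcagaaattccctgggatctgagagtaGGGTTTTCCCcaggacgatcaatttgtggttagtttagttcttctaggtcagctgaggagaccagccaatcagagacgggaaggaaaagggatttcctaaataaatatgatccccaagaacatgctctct
Cxcl1 (chr5:90890995-90891244, plus strand): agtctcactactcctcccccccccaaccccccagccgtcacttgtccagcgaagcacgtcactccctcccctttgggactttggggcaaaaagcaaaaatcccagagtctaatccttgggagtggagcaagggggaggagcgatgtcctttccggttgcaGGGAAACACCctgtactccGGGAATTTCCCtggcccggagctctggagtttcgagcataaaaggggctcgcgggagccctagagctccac

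Cxcl10 held 2 matches of the NF-kappaB pattern and 1 of the interferon pattern, the latter at -213 to -204 from the start site. Cxcl9 held 1 match of the NF-kappaB pattern and Cxcl1 held 3, of which 2 overlap. The windows of Cxcl12, Cxcr4, Ackr3 and Cx3cl1 held neither. A pattern of interferon gamma-activated sites (TTCNNNGAA, with N any base) was also searched, without a match in the 7 windows. Of all 32851 windows of 300 bases in the same set, 20.7% held the NF-kappaB pattern, 3.44% the interferon pattern and 8.30% the gamma-activated pattern. These are matches of letters and do not show that a factor was bound.

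Ccl2 and Cxcl1, which recruit monocytes through CCR2 and neutrophils through CXCR2, were the lowest members. Ccl2 (ENSMUSG00000035385; chromosome 11, 81926397 to 81928279, plus strand) had normalized counts of 107, 163 and 140, with a mean of 136.7 ± 28.1 (SD, n = 3). Cxcl1 (ENSMUSG00000029380; chromosome 5, 91039100 to 91040974, plus strand) had 148, 170 and 121, with a mean of 146.3 ± 24.5. Mouse 2 was the highest for both. Their transcripts are short, 813 and 959 bases, and per canonical base they had 0.168 ± 0.035 and 0.153 ± 0.026, so they remained the lowest of the members by this measure and ranked 5011 and 5501 of all genes. Cxcl1 differs from the other members in the part of the transcript that follows the coding region. The pentamer ATTTA, a core of elements that destabilize many cytokine transcripts, occurred 7 times in its 592 bases, or 11.8 per kilobase. Only 0.517% of 13934 protein-coding genes had more per kilobase, and the median was 1.33. Ccl2 had 3.64 and Cxcl10 2.74 per kilobase, Cxcl12 had 0.771, and the remaining members lay between 0.534 and 1.63.

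Ordered by the level per canonical base, the members were Cxcl12, Cxcr4, Cxcl10, Cxcl16, Ackr3, Cx3cl1, Cxcl9, Ccl2 and Cxcl1. A gap wider than the larger SD separated 3 of the 8 pairs of neighbours, namely Cxcl12 and Cxcr4, Ackr3 and Cx3cl1, and Cxcl9 and Ccl2. Each of these pairs kept its order in all 3 mice. The gap between Ackr3 and Cx3cl1 was narrow, 0.0193 against an SD of 0.0183, and their order was reversed with the other lengths. They had 0.112 and 0.230 per base of all exons, and 0.274 and 0.282 with the median coding transcript. From Cxcr4 to Cxcl9 the values ran only from 0.352 to 0.271, and the places in between depended on the length. Dividing by all exons left 3 members in place and moved Ackr3 to place 8, and the median coding transcript left 5 in place. Without division by length the members ordered differently, because the canonical transcripts ranged from 813 to 5669 bases.

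The members differed in how steady they were between mice. The coefficient of variation was 3.12% for Cxcl12, 3.19% for Ackr3, 6.66% for Cx3cl1 and 7.40% for Cxcl16, against a median of 7.37% among the 9358 genes whose mean reached 200. It was 13.0% for Cxcl9, 16.8% for Cxcl1, 18.1% for Cxcr4, 20.6% for Ccl2 and 43.1% for Cxcl10. Counting alone gives 5.46% for Cxcl10 and 8.57% for Ccl2. Duplicate removal limits genes near 1 per base and may narrow the spread of Cxcl12, which was not tested. Of the 7 members with a mean of at least 200, only Cxcl10 exceeded 20%, as did 8.00% of all genes at this level. Leaving out mouse 2 brought Cxcl10 to 22.2%, and leaving out mouse 1 brought Cxcr4 to 6.63% and Ccl2 to 10.7%. Without mouse 2 Cxcr4 was past 20% as well, at 23.9%, and without mouse 1 so was Cxcl1, at 23.8%. With 3 values, leaving out the one farthest from the others always lowers the SD. A fall alone therefore does not show that a mouse set the spread. Without mouse 3 the coefficient of variation was 0.086% for Cxcl12, 1.15% for Ackr3, 3.35% for Cxcl9 and 9.78% for Cxcl1. It was 1.15% for Cxcl16 without mouse 1 and 3.45% for Cx3cl1 without mouse 2. Counting alone gives more for Cxcl12 (1.43%), Ackr3 (3.32%), Cxcl9 (3.57%) and Cxcl16 (3.33%). It gives less for Cxcl1 (8.29%) and Cx3cl1 (3.31%). Mouse 2 had the highest value of 5 members (Cx3cl1, Ccl2, Cxcl1, Cxcl9 and Cxcl10) and mouse 1 of the other 4, while mouse 3 had the lowest value of 6. Of the 10 endothelial markers, 6 were also lowest in mouse 3 and 1 was highest there. The leukocyte markers had their lowest sum in mouse 1, at 589 against 846 and 823 in mice 2 and 3. Cx3cl1, Cxcl10 and Ccl2 were lowest there as well. This was not particular to leukocyte markers, since the 5 lymphatic endothelial markers were each lowest in mouse 1. The cardiomyocyte markers also had their lowest sum there, although 3 of the 7 were lowest in mouse 3. Each of the 7 leukocyte markers with counts in every mouse was lowest in mouse 1, C1qa equally so in mouse 3. The highest mouse varied. Adgre1, Csf1r, Lyz2 and Itgam were highest in mouse 3. Ptprc, Cd68, C1qa and Cd79a were highest in mouse 2, as Cx3cl1, Cxcl10 and Ccl2 were. The part of leukocyte RNA in these values was not tested. The fibroblast and mural markers had their highest sums in mouse 3 and their lowest in mouse 1. Single markers departed from this, since 5 of the 8 fibroblast markers and 5 of the 8 mural markers were highest in mouse 3. The part of fibroblast and mural RNA in the values of the members was not tested. Cytokine response genes, summed over 9 with Vcam1 the highest and Sele the lowest, came to 6987, 7119 and 6609. Immediate early genes, summed over 8 with Egr1 the highest and Atf3 the lowest, came to 5295, 4884 and 6642 and were highest in mouse 3, where no member was.

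**Figure D3:**
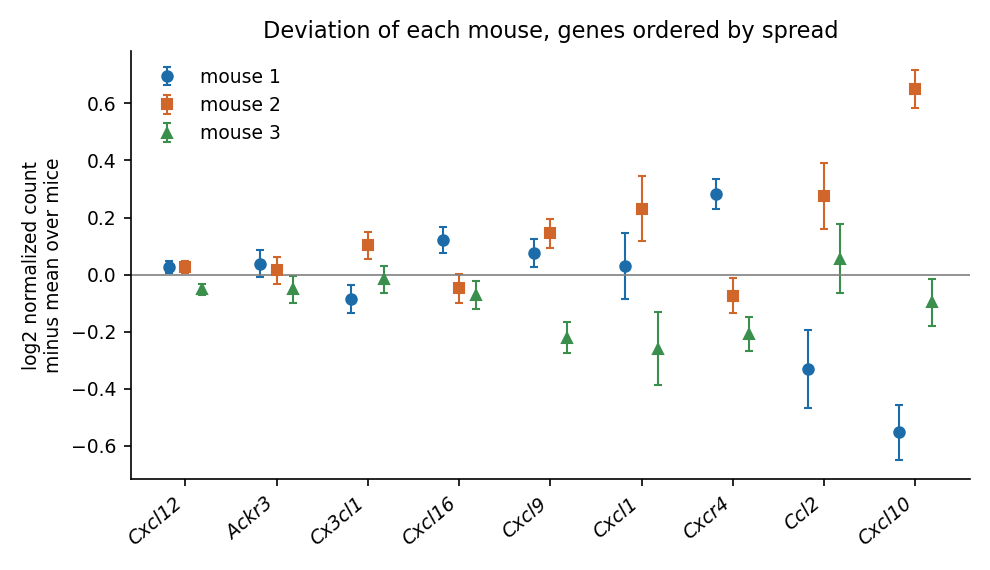
Log2 normalized count of each mouse minus the mean over the 3 mice, for the 9 genes ordered by their coefficient of variation. Bars are 1 SD of counting error for that mouse, and Cxcl10 has the widest gap between mice, 218 in mouse 1 against 502 in mouse 2.

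Few other chemokine genes reached the members' levels. A chosen list of 53 other mouse chemokine ligands and receptors, which is not complete, had 30 genes in the table. Of these, 24 had a mean of at least 10 and 5 a mean of at least 100. Over all genes in the table the median of the means was 237. All 9 members had a mean of at least 10, as did 82.1% of all genes in the table, and since the members were chosen with their levels known this count is a description. A gene that is not listed had values below 4 in each mouse if the same limit held for it, because no gene in the table has a highest value under 4. Of 31 other ligands, 19 were listed and only Ccl21a, a chemokine of lymphatic endothelium, exceeded 100, with normalized counts of 251, 271 and 254. Ccl21a has near-identical copies in the mouse genome and reads with several positions were removed, so its value is uncertain. Per canonical base it had 0.30 ± 0.013, which is close to Cxcl16. Summed over the 26 ligands listed, Cxcl12 made up 55.3% ± 1.6 of the normalized counts and 28.3% ± 2.6 of the values per canonical base.

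Receptors were divided by class. Of 17 other conventional receptors, 6 were listed and the highest, Ccr2 of monocytes, had normalized counts of 35, 61 and 42. Among the conventional receptors looked up, Cxcr4 was thus the only one above 100. All 5 other atypical receptors and relatives were listed. Gpr182, a scavenging receptor of lymphatic and sinusoidal endothelium, had 736, 588 and 889, and Ccrl2, which presents the attractant chemerin, had 563, 465 and 444. Per canonical base they had 0.185 ± 0.038 and 0.198 ± 0.026, below Ackr3 at 0.295. Ackr2, a scavenger of inflammatory CC chemokines, had 108, 276 and 255, and Ackr4, a scavenger of homeostatic CC chemokines, had 107, 79 and 211. Ackr1, a marker of venules that binds many chemokines, had 24, 116 and 69. Mouse 1 was far below the others for Ackr1 and Ackr2, and mouse 3 far above them for Ackr4. Per canonical base, Cxcr4 made up 29.2% ± 4.4 and Ackr3 24.5% ± 0.6 of the 13 receptors listed.

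**Figure D4:**
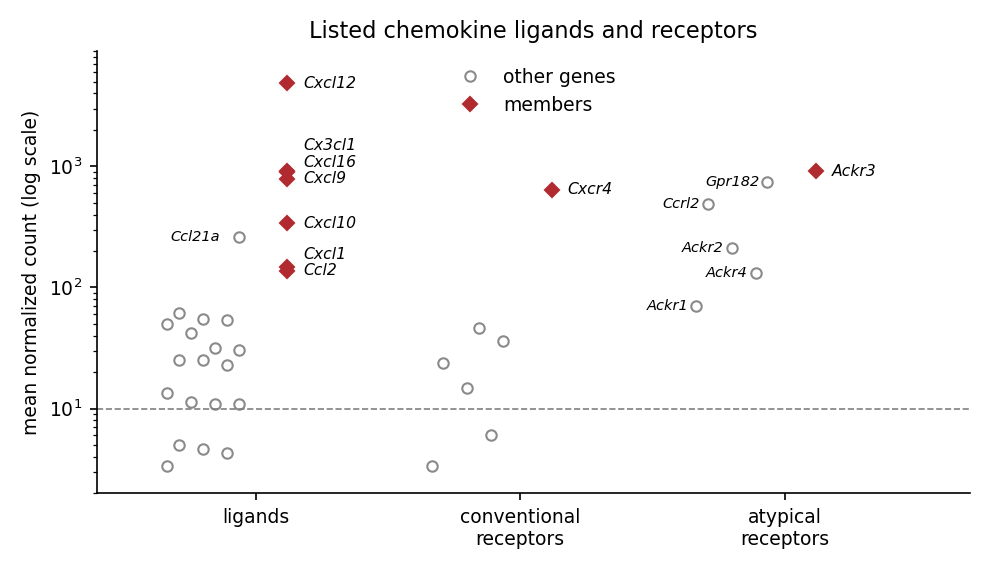
Mean normalized count (log axis) over 3 mice of the chemokine ligands, conventional receptors and atypical receptors that were looked up and are in the table. The 9 members are filled diamonds and other genes open circles. The dashed line is a mean of 10, and apart from the members only Ccl21a, Gpr182, Ccrl2, Ackr2 and Ackr4 lie above 100.

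All 13 genes of a list of chemokine handling and signalling, which includes Adam10 and Adam17, were in the table. Of the G protein subunits that couple to CXCR4, Gnai2 had 0.834 ± 0.041 normalized counts per canonical base, close to Cxcl12, and ranked 40, while Gnai3 had 0.391 ± 0.017 and Gnai1 had 0.061 ± 0.007. The kinase gene Grk2, whose product turns off activated receptors, had 0.424 ± 0.007 and its relative Grk3 had 0.030 ± 0.006. The arrestin genes Arrb1 and Arrb2, whose products bind both CXCR4 and ACKR3, had 0.211 ± 0.035 and 0.268 ± 0.011. Further partners of the axis were present below Cxcl12. Mif, a cytokine that also binds CXCR4, had 0.358 ± 0.033, its receptor Cd74 had 0.195 ± 0.010, and Hmgb1, which forms a complex with CXCL12, had 0.174 ± 0.009. Dpp4, the protease that cuts and inactivates CXCL12, was low and unsteady, with normalized counts of 121, 75 and 337 and 0.034 ± 0.027 per canonical base.

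The canonical transcripts of the members had no exact copies of read length. No such window in any of the 9 transcripts was found elsewhere in GRCm39. None of their bases lay in an exon of another gene on the same strand in the annotation used here. Copies with mismatches, shorter stretches and exons outside the canonical transcripts were not searched. The members lie on 5 chromosomes, with Cxcl1, Cxcl9 and Cxcl10 on chromosome 5, Ccl2 and Cxcl16 on chromosome 11, Cxcr4 and Ackr3 on chromosome 1, Cxcl12 on chromosome 6 and Cx3cl1 on chromosome 8.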

How the data were processed

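RNA bound to tagged ribosomes was sequenced from the hearts of 3 EC-RiboTag mice. Per the labels and the methods, the authors trimmed reads with Trimmomatic 0.39, aligned them to mm39 (GRCm39) with STAR 2.7.11a, removed duplicates with Picard 3.1.1 as well as multi-mapping, ribosomal and mitochondrial reads, counted exonic reads per gene and strand with featureCounts 2.0.4, and normalized with DESeq2 1.36.0. The deposited values are a score in that these normalized counts were rounded to whole numbers, so no count model was fitted. The implied depths were about 7320000, 6750000 and 7570000 reads, estimated from whole numbers that rounding skips or doubles and tested on simulated data. Errors of counting cover counting only.

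Levels are means and SDs over mice, whose separation rests on the label of biological replicates. Levels of different genes were compared after division by transcript length in GENCODE M39 for GRCm39, a newer annotation than that of the authors, which held 17475 of 17583 genes (99.4%). Copies were searched with BLAST 2.17.0. Python 3.11.15, numpy 2.4.6, pandas 2.3.3 and matplotlib 3.10.9 were used. The members, gene lists and alternatives (other scalings, lengths, filters, pseudocounts and leaving out a mouse) were chosen with earlier results of these data known. Named genes are the members, other chemokine ligands and receptors with a mean of at least 100, the 13 genes of handling and signalling, the highest and lowest of 2 response lists, and the 3 genes nearest to Cxcl12. Cx3cr1, Ccr2, Ackr1, Irf1, Gbp2 and the leukocyte markers, and those named under other observations, were named after their values were seen.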

Additional observations from a re-analysis of the deposited data

How the results depend on the processing

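Levels, ranks and coefficients of variation kept their place under scaling by trimmed means and under equal totals, ranks also under ranking by the median and a minimum of 10 in every mouse, and ratios under pseudocounts of 1 and 5. The length used moved most values. Cxcl12 had 0.583 per base of all exons and 2.53 per base of the median coding transcript, against 0.859. With all exons, the median coding transcript and no division by length (chosen after seeing the data), the log2 ratios were 0.74, 2.44 and 2.94 for Cxcl12 to Cxcr4, 2.38, 3.21 and 2.42 for Cxcl12 to Ackr3, 1.34, 3.17 and 2.42 for Cxcl12 to Cx3cl1, 1.73, 3.07 and 2.43 for Cxcl12 to Cxcl16, 1.64, 0.77 and -0.52 for Cxcr4 to Ackr3, the last being a reversal, and -0.86, -0.53 and -1.29 for Cxcl10 to Cxcl9, all of the opposite sign to its 0.11 per canonical base. That of Cx3cl1 to Cxcl16 was 0.39 with all exons. A mean of at least 50 left 5 other ligands instead of 15 and 0 other conventional receptors instead of 4. No paired analysis was possible because there is 1 group. With mean levels compared between genes, duplicate removal limits genes near 1 per base, of which Cxcl12 is the nearest member.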

Other observations

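Ccl5, Cxcl11, Cxcl13 and Cxcl14, chemokine genes with low counts, varied between mice more than any member did, and they were singled out after their values were seen. Ccl5, a ligand of T cells and monocytes, had 18, 94 and 49 normalized counts in mice 1, 2 and 3, and Cxcl11, the remaining ligand of CXCR3, had 13, 41 and 15. Both were highest in mouse 2 and lowest in mouse 1, the order of Cxcl10. Cxcl13, which attracts B cells, had 1, 2 and 30, so its mean rests on mouse 3. Cxcl14 had 77, 23 and 27 and was highest in mouse 1. Pf4, a platelet chemokine, had 50, 51 and 50, a coefficient of variation of 1.15%. Counting alone gives 14.1% for it, so this closeness does not show a steady level. Other chemokine genes with lower means also varied more than any member, among them Ppbp at 96.4%, Ccl4 at 81.0% and Cxcl17 at 72.1%. The coefficient of variation was 71.2% for Ccl5, 67.9% for Cxcl11, 149.7% for Cxcl13 and 71.1% for Cxcl14, where counting alone gives 13.8%, 21.1%, 29.6% and 15.3%. No cause was tested.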
